A study of Saccharomyces cerevisiae with 6 samples.

Results

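The silencing factor genes of budding yeast were followed in naive and [ESI+] diploid cells. The set was SIR1, SIR2, SIR3, SIR4, ORC1, YKU70, YKU80, RAP1, RIF1 and HST3, and a gene was kept where its systematic name ended a transcript identifier in the deposited tables. By this rule 5 of the 10 genes were found, SIR1 (YKR101W), SIR2 (YDL042C), ORC1 (YML065W), YKU70 (YMR284W) and HST3 (YOR025W), among 2850 genes in all. The other genes of the set were not analysed here. The set was proposed with results of the ESI+ against naive comparison known, so the levels and fold changes of these genes are given as a description. No p is given for them, and nothing is read from the count of them that a fit over all genes called.

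Silent chromatin in yeast covers the hidden mating-type loci HML and HMR, the regions next to telomeres and the ribosomal DNA. At HML and HMR, the origin recognition complex, Rap1 and Abf1 bind silencer elements; Sir1 binds the origin recognition complex there and helps to bring in Sir2, Sir3 and Sir4, of which Sir2 removes acetyl groups from histones. At telomeres, Rap1 and the Ku heterodimer take part in bringing in the Sir proteins. The [ESI+] state is a heritable, prion-like state linked to Snt1, which belongs to the Set3 complex of histone deacetylases, and to raised expression near telomeres.

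Both groups were the diploid laboratory strain BY4743 of Saccharomyces cerevisiae, grown in the rich medium YPD to mid-logarithmic phase, and differed by the label naive or [ESI+] diploid. Each group held 3 biological replicates, each 1 library of oligo-dT-enriched RNA. The labels name no allele or plasmid that sets the [ESI+] cells apart, and they do not say how the state was introduced or checked. These are bulk measurements, in which a change in the share of cells that express a gene and a change in RNA per cell cannot be told apart.

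Total estimated counts were 1080941 to 5934050 in the naive libraries and 316485 to 3896490 in the ESI+ libraries, with ESI+ replicate 3 the shallowest. The ESI+ libraries stood apart from each other. Pearson's r of log2 CPM, across genes, which are not independent replicates, was 0.926 to 0.952 between naive libraries and 0.592 between ESI+ replicates 2 and 3. ESI+ replicate 1 was closer to the naive libraries (0.898 to 0.908) than to ESI+ replicates 2 and 3 (0.735 and 0.741). ESI+ replicate 2 also had the highest floor of read density. The 5th percentile of counts per kilobase over all genes was 296.957 in that library, against 7.265 to 55.14 in the naive libraries, 32.58 in ESI+ replicate 1 and 1.988 in ESI+ replicate 3. These floors are not scaled for depth, and the 1.988 was in the shallowest library. ESI+ replicate 1 had its 32.58 on 1937568 counts in all. Naive replicates 1 to 3 had 42.163, 7.265 and 55.14 on 4361435, 1080941 and 5934050. Relative to depth, the floor of ESI+ replicate 1 was thus also above that of each naive library. Markers of haploid cells were few in the files. Of the 7 a-cell markers, MFA1, MFA2 and AGA2 were listed, with 0 to 14 counts in the naive libraries, 1 to 7 in ESI+ replicate 1, 66 to 96 in ESI+ replicate 2 and 0 to 37 in ESI+ replicate 3. These counts are not scaled for depth. The 37 were of AGA2 in ESI+ replicate 3, the shallowest library with 316485 counts in all. The 96 were of AGA2 in ESI+ replicate 2, with 3896490. Relative to depth, AGA2 was thus highest in ESI+ replicate 3. MFA1, the sole a-cell marker tested, had 0 to 1.42 normalised CPM in the naive libraries. In ESI+ replicates 1 to 3 it had 3.77, 11.4 and 15.0. None of the 4 alpha-cell markers was listed, and of the 8 haploid markers STE4 was. URA3, which BY4743 lacks, had 254.8 normalised CPM in naive replicate 3 and 333 in ESI+ replicate 3, which go against the strain label, and 17.8 to 32.3 in the other libraries. The source of the URA3 counts was not tested. Of the other strain markers listed, HIS3 had 453 in ESI+ replicate 3 and 32.6 to 66.45 elsewhere, and MET17 had 223 and 48.7 to 109. The part of these library differences in the results below was not tested, except where values without a library are given.

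SIR1 encodes a protein that acts in establishing silencing at HML and HMR. It lies on chromosome XI at 640540 to 642504 on the plus strand of build R64, 24.3 kb from the right end of the chromosome. Its level in normalised CPM, counts scaled to the effective size of each library, was 21.0, 19.01 and 9.59 for naive replicates 1 to 3, while ESI+ replicates 1 to 3 had 57.1, 281 and 143. Every ESI+ library was above every naive library, and ESI+ replicate 2 was highest. The values rested on 74, 14 and 44 counts for naive cells and on 106, 2125 and 57 for ESI+ cells. The log2 fold change, ESI+ minus naive, was 3.31 (SE 0.60, n = 3 per group), or 9.90-fold, and it was 2.58 without ESI+ replicate 2 and 1.81 with ESI+ replicate 1 as the sole ESI+ library.

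ORC1 encodes the largest subunit of the origin recognition complex, which marks replication origins and also binds the silencers. It lies on chromosome XIII at 142210 to 144954, plus strand, 142.2 kb from the nearer end. Naive libraries had 29.5, 46.2 and 30.3 normalised CPM and ESI+ libraries had 85.1, 317 and 220.4, again without overlap. The underlying counts were 104, 34 and 139 for naive and 158, 2393 and 88 for ESI+ cells. Its log2 fold change was 2.58 (SE 0.52, n = 3 per group), 2.11 without ESI+ replicate 2 and 1.30 with ESI+ replicate 1 alone.

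YKU70 encodes a subunit of the Ku heterodimer, which binds DNA ends in end joining and at telomeres. It lies on chromosome XIII at 838187 to 839995, plus strand, 84.4 kb from the right end. By TPM, a level per transcript length, it was the highest of the 5 genes in every library. The naive libraries held 92.4, 126 and 84.8 normalised CPM, and the ESI+ libraries held 144, 337 and 233. The groups did not overlap, but the lowest ESI+ value was close to the highest naive one. The log2 fold change was 1.24 (SE 0.45, n = 3 per group), 0.89 without ESI+ replicate 2 and 0.50 with ESI+ replicate 1 alone. On the scale of log2(TPM + 1), where the median of all genes was 0.65, it was 1.93.

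HST3 encodes a sirtuin that removes the acetyl group from lysine 56 of histone H3. It lies on chromosome XV at 378219 to 379562, plus strand, 378.2 kb from the left end. The naive libraries were close to each other, at 13.6, 13.6 and 14.8 normalised CPM, while the ESI+ libraries had 25.8, 90.9 and 2.50. ESI+ replicates 1 and 2 were above all naive libraries and ESI+ replicate 3 was below them, on a single count. The log2 fold change of 1.58 (SE 0.78, n = 3 per group) fell to 0.24 without ESI+ replicate 2 and was 2.07 without ESI+ replicate 3. With ESI+ replicate 1 alone it was 0.86, and with the replicate number as a block 0.81.

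SIR2 encodes the histone deacetylase of the Sir complex, which also acts at the ribosomal DNA. It lies on chromosome IV at 376757 to 378445, minus strand, 376.8 kb from the left end. Naive libraries gave 23.0, 33.9 and 65.8 normalised CPM, ESI+ libraries gave 31.8, 82.1 and 65.1, and the groups overlapped. The log2 fold change was 0.53 (SE 0.60, n = 3 per group), the smallest of the 5. It depended on single libraries: it was 0.17 without ESI+ replicate 2, 0.29 without naive replicate 1 and 1.14 without naive replicate 3, and it turned to -0.40 with ESI+ replicate 1 alone. On the scale of log2(TPM + 1) it was 1.30.

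**Figure D1:**
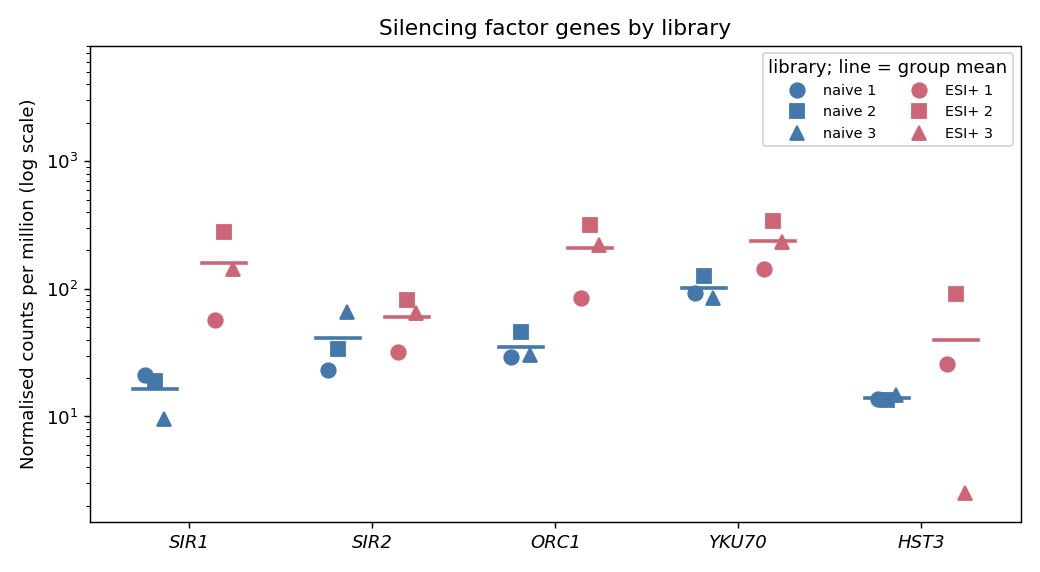
Normalised CPM (log scale) of the 5 silencing factor genes in each of the 3 naive (blue) and 3 ESI+ (red) libraries, with group means as lines. The ESI+ libraries lie above all naive libraries for SIR1, ORC1 and YKU70, and the groups overlap for SIR2 and HST3, where ESI+ replicate 3 holds 1 count.

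By edgeR's quasi-likelihood test over all genes (adjusted p under 0.05), SIR1 and ORC1 were called higher, 2 of the 5 genes, where 6.26% of the 2844 tested genes were called higher. SIR1, ORC1 and YKU70 had groups that did not overlap, with ESI+ higher, where 15.2% of tested genes did. The median log2 fold change of the 5 genes was 1.58, against 0.07 over all tested genes. Because the genes were proposed with this contrast known, nothing is read from these counts. Without ESI+ replicate 2 none of the 5 was called, while over all genes 2 were called higher (0.0704%), 0 lower and 566 had an unadjusted p under 0.05 (edgeR); without ESI+ replicate 3, 4 of the 5 were called higher, in a fit that called 11.6% of all tested genes higher.

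Fold changes moved with abundance over all genes. SIR1, SIR2, ORC1 and HST3 fell in the lowest quartile of tested genes by mean naive CPM, and YKU70 in the third. In that lowest quartile of 711 genes the median log2 fold change was 1.17, 19.7% of genes were called higher and 41.2% had ESI+ libraries wholly above naive. The third quartile had a median of -0.28, with 0.281% called higher and 3.09% wholly above naive. SIR1, ORC1 and HST3 thus lay above the median of their own quartile, and SIR2 lay below it. HST3, at 1.58, had 0.24 without ESI+ replicate 2. YKU70 had a positive value in a quartile whose median was negative. Naive values enter both the quartiles and the fold change, so these medians only describe the table. By transcript length, SIR1, SIR2, ORC1 and YKU70 were in the longest quartile, whose median log2 fold change was 0.38, against -0.02, 0 and -0.10 in the 3 quartiles of shorter transcripts. The median of the longest quartile relative to the naive mean was 0.90 (log2) in ESI+ replicate 2, 0.09 in replicate 1 and -0.02 in replicate 3.

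**Figure D2:**
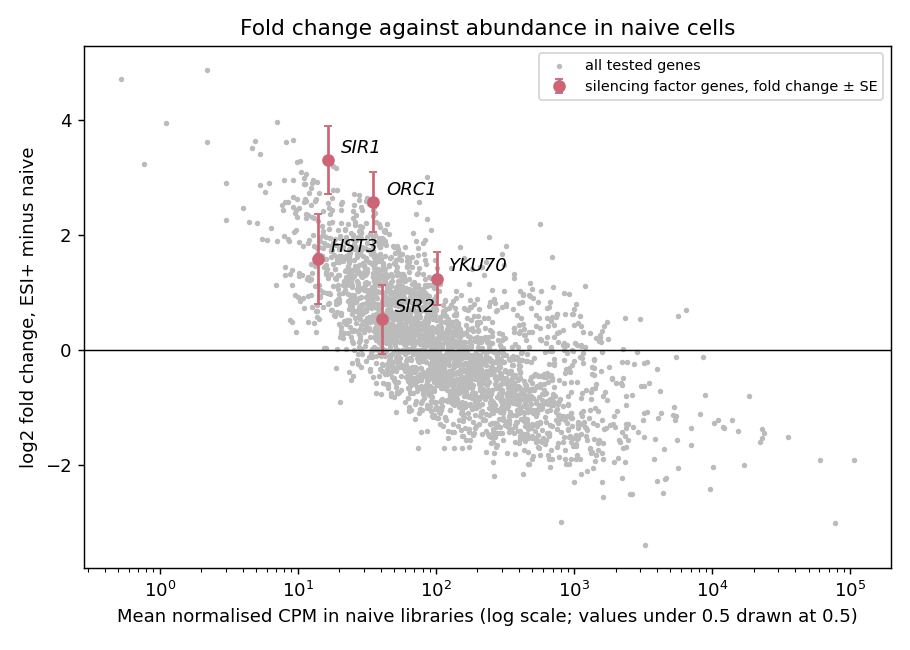
Log2 fold change, ESI+ minus naive, of all 2844 tested genes (grey) against mean normalised CPM in the naive libraries (log scale), with the 5 silencing factor genes in red and bars for the SE. Fold changes decline with naive abundance over the whole table; SIR1 and ORC1 lie near the upper edge at their abundance, and SIR2 lies inside the cloud.

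Ranks within each library do not depend on scaling between libraries. Ordered by TPM, SIR1 stood at percentile 2.81, 3.75 and 0.42 of all 2850 genes for naive replicates 1 to 3, among the least abundant genes. In ESI+ replicates 1 to 3 it stood at 12.1, 66.2 and 40.95. ORC1 stood at 2.88, 9.02 and 2.88 in naive and 14.2, 51.7 and 44.0 in ESI+ libraries, and YKU70 at 32.9, 40.9 and 28.4 and at 47.3, 80.7 and 61.5. For these 3 genes every ESI+ rank was above every naive rank. The share of all genes that separate by rank was not computed, so nothing is read from this. By CPM, 15.2% of all tested genes lay wholly above naive, and 41.2% of the lowest quartile by naive abundance did. SIR2 stood at 5.09, 12.2 and 23.1 in naive and 4.14, 5.72 and 24.2 in ESI+ libraries. HST3 stayed in the low ranks, at 2.74, 4.35 and 3.37 in naive and 4.18, 18.0 and 2.88 in ESI+ libraries.

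Compared per length in the naive libraries, the order of the genes was YKU70 with 36.0 ± 4.84 TPM, SIR2 with 15.3 ± 8.41, ORC1 with 7.85 ± 1.32, HST3 with 6.83 ± 0.83 and SIR1 with 5.22 ± 2.16 (SD, n = 3). YKU70 was above each other gene in every naive library. SIR2 was above ORC1, HST3 and SIR1 in every naive library. HST3 did not differ from ORC1 or from SIR1 beyond their spread, while ORC1 was above SIR1 in every naive library, by 0.09 TPM in the first of them. In the ESI+ libraries the order was YKU70 with 173 ± 140 TPM, SIR1 with 110 ± 115, ORC1 with 96.8 ± 86.7, SIR2 with 45.3 ± 35.5 and HST3 with 44.1 ± 62.3 (SD, n = 3), each spread being of the size of the mean or close to it. SIR1, last of the 5 in naive cells by mean TPM, was thus above SIR2 in each of the 3 ESI+ libraries, with 22.5, 241 and 66.8 TPM against 14.9, 84.3 and 36.5.

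Read density was also set against the floor of each library, the 5th percentile of counts per kilobase over all genes. SIR1 had 33.6, 6.36 and 19.99 counts per kilobase for naive replicates 1 to 3, which is 0.80, 0.88 and 0.36 times that percentile. In ESI+ replicates 1 to 3 it had 48.2, 965 and 25.9 counts per kilobase, or 1.48, 3.25 and 13.0 times the percentile. In naive cells SIR1 was therefore among the lowest 5% of genes by density in each library, and in ESI+ cells it was outside them in each library. ORC1 had 0.82, 1.56 and 0.84 times the percentile in naive and 1.62, 2.69 and 14.8 times in ESI+ libraries. YKU70 was well above the floor in all libraries, at 3.61 to 6.56 times in naive and 4.20, 4.396 and 23.96 times in ESI+ libraries, so that its values in ESI+ replicates 1 and 2 lay within the naive range. HST3 had 0.73 to 0.88 times the percentile in naive and 0.95, 1.49 and 0.32 times in ESI+ libraries. SIR2 had 1.02, 1.83 and 2.92 times in naive and 0.96, 1.11 and 6.97 times in ESI+ libraries. In ESI+ replicate 2, then, SIR2 and HST3 were close to the floor of the library although their CPM was highest there. The floor of ESI+ replicate 3 was 1.988 counts per kilobase, in a library with 78 genes at 0 counts. Its ratios thus rest on few counts and are less certain than those of the deeper libraries.

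**Figure D3:**
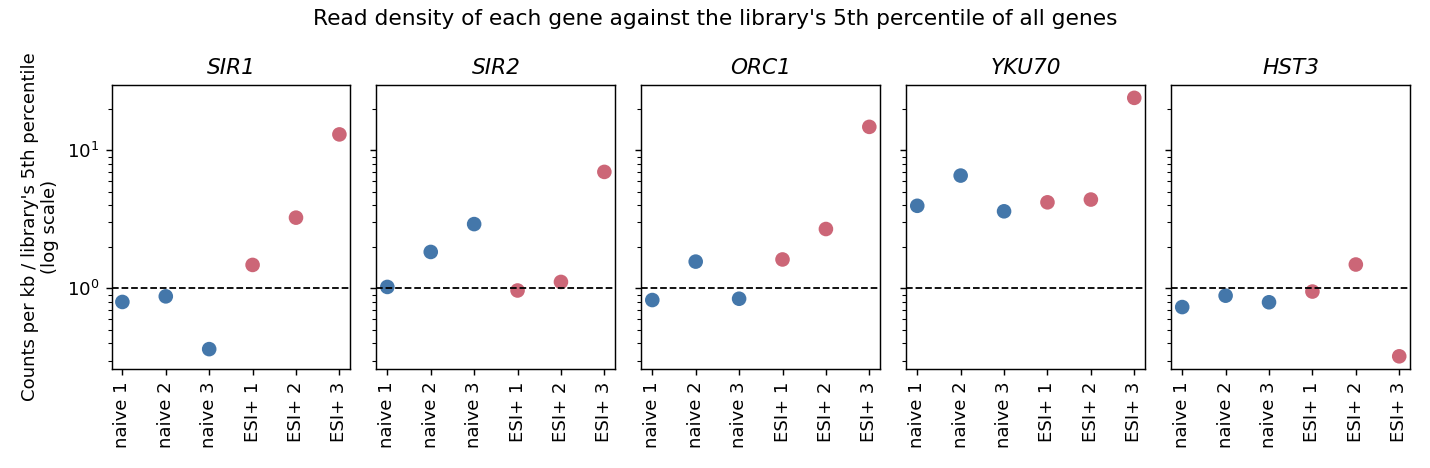
Counts per kilobase of each gene divided by the 5th percentile of counts per kilobase of all genes in the same library (log scale), for 3 naive (blue) and 3 ESI+ (red) libraries; the dashed line marks a ratio of 1. SIR1 lies below the line in each naive library and above it in each ESI+ library, and YKU70 lies above it throughout. The percentile of ESI+ replicate 3 rests on few counts.

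The transcript models gave 1 isoform for SIR1 (2201 bases) and 1 for YKU70 (1952 bases), 2 for SIR2 and 3 each for ORC1 and HST3. The isoforms of ORC1 were 2929, 2987 and 2998 bases long, which is 184, 242 and 253 bases more than its coding span. The share of counts assigned to each isoform within a gene was not used to choose the genes. The isoform with the highest summed count over the 6 libraries was followed, which was the longest model in all 3 genes. For ORC1 and HST3 that sum came mostly from ESI+ replicate 2, so the choice favours an isoform that is high there, and its share is given as a description. The same exact test was also run on that share, but no p is given for it because of this choice. The test given here is that on the count-weighted mean isoform length, which picks no isoform.

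For ORC1 this isoform of 2998 bases held 0.61%, 0% and 0.34% of the gene's estimated counts for naive replicates 1 to 3, against 100%, 100% and 91.1% for ESI+ replicates 1 to 3. In naive replicates 1 and 3 the model of 2987 bases held 99.4% and 88.2%, and in naive replicate 2 the model of 2929 bases held all 34 counts. The models of 2987 and 2998 bases are close in length. How firmly the fragments tell them apart was not tested. The naive and ESI+ libraries did not overlap, with a difference of 96.7 percentage points. The count-weighted mean length of ORC1 transcripts was 2965 ± 31.8 bases for naive and 2996 ± 3.55 for ESI+ libraries (n = 3, SD), higher in 3 of 3 ESI+ libraries (exact two-sided permutation test, p = 0.10, the smallest p that 3 against 3 allows; 0.30 after Benjamini-Hochberg adjustment over 3 genes). The difference in mean length was 30.5 bases, and 12.2 without naive replicate 2. The mean length was higher in ESI+ without overlap in 17.4% of the 2071 genes with several isoforms and counts in every library. Among the same 2071 genes, 6.76% had a leading isoform whose share was higher in ESI+ without overlap. For the longest isoform this figure was 12.3%.

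For HST3 the isoform of 1563 bases held 0% in each naive library, where the model of 1506 bases held all counts, and 100% in ESI+ replicates 1 and 2. In ESI+ replicate 3 it held 0%, on a single count. The difference of the means was 66.7 percentage points, and the mean length was 1506 bases in each naive library and 1544 ± 32.9 for ESI+ libraries (n = 3, SD; exact two-sided permutation p = 0.40, adjusted 0.60). For SIR2 the 2 models differ by few bases, at 1870 and 1876. The longer one held 99.999% to 100% in naive replicates 1 and 3 and in ESI+ replicates 1 and 2, and 1.19% and 1.46% in naive replicate 2 and ESI+ replicate 3, the shallowest libraries of their groups. The mean length of SIR2 transcripts was 1874 bases in both groups (exact two-sided permutation p = 0.70, adjusted 0.70). The makeup of SIR2 thus did not follow the groups. Longer models were also favoured over the whole table in part of the ESI+ libraries: the longest isoform held over 50% of the counts in 45.6% and 80.9% of genes with several isoforms in ESI+ replicates 1 and 2, in 13.1% in ESI+ replicate 3, and in 13.2% to 21.2% in the naive libraries. ORC1 was among those 13.1% in ESI+ replicate 3.

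**Figure D4:**
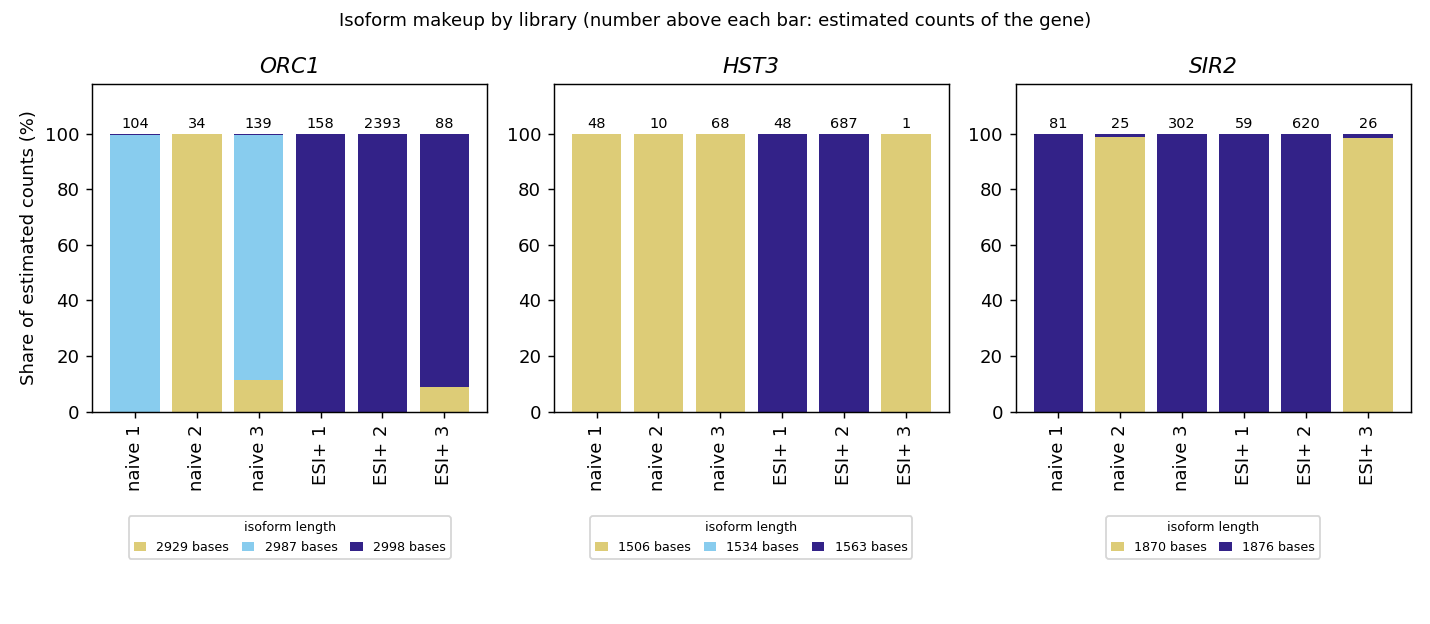
Share of estimated counts (%) assigned to each isoform of ORC1, HST3 and SIR2 in each library, with the gene's estimated counts above each bar. The longest model of ORC1 holds at least 91.1% in each ESI+ library and at most 0.61% in each naive library, while that of SIR2 does not follow the groups.

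The genome window from 250 bases before to 50 bases after the start codon of each gene was read from build R64 and searched on both strands for 5 motifs. These were the cell cycle elements ACGCGT and CGCGAAA, the stress element AGGGG, the Reb1 motif TTACCCG and the TATA motif TATAAA. The Reb1 motif was found in 1 of the 5 windows, that of HST3, and in 7.08% of 6001 windows of protein-coding genes. It is shown because it was the sole match, with the motif in capitals, at chrXV:377992-378020 on the plus strand, where it reads on the opposite strand of the gene.
HST3: tccctcaattgCGGGTAAcaataagtaac
The letters of the other 4 motifs were in none of the 5 windows, and they were in 3.07% (ACGCGT), 3.6% (CGCGAAA), 21.6% (AGGGG) and 45.2% (TATAAA) of all windows. In nucleotide sequence, SIR2 matched HST1 at 72.7% identity over 57.7% of its coding span and ORC1 matched SIR3 at 74.3% over 3.7%, and 0 of the 5 genes had a copy at 95% identity over 50% of its length.

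Genes that act with the silencing factors were taken from fixed lists, chosen with earlier results of these data known. Of 86 listed genes 30 were in the files and tested. In the comparison of ESI+ with naive cells, 7 of the 30 were called higher, where 6.26% of all tested genes were, 0 were called lower, where 1.65% of all were, and 23 were not called (edgeR, adjusted p under 0.05). On the lower side, 1 had an unadjusted p under 0.05, and the calls were 1 by DESeq2 and 0 by limma run on log2(TPM + 1). Over all genes, DESeq2 called 145 of 2843 lower and limma 32 of 2850. The called genes included 3 of replication origins, 2 of histone H3 lysine 56 acetylation and 2 of other chromatin complexes. Of the 30, 22 had positive fold changes, as did 52.4% of all tested genes, and their median was 0.92, against 0.07. All 7 called genes were among the 17 members in the lowest quartile by naive abundance, where 19.7% of genes were called higher. Without ESI+ replicate 2, 0 of the 30 were called higher (edgeR, where 2 genes of the whole table were). Without naive replicates 1, 2 and 3 the counts were 4, 3 and 4, where 87, 63 and 71 genes of the whole table were called higher, against 178 with all libraries.

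The origin genes were nearest in role to ORC1, and the 8 that were tested all had values above 0, with a median log2 fold change of 1.62. ORC3, another subunit of the origin recognition complex, rose by 3.27 on the log2 scale (SE 0.63, edgeR adjusted p = 0.00554), with 9.87 ± 3.85 normalised CPM in the naive and 101 ± 48.1 (SD, n = 3) in the ESI+ group. SLD3, which acts in origin firing, rose by 2.97 on the log2 scale (SE 0.71, edgeR adjusted p = 0.0128). MCM6, a subunit of the replicative helicase, rose by 2.22 (SE 0.51, edgeR adjusted p = 0.00928). The other subunits ORC4, ORC2 and ORC6 had 1.57, 1.28 and 1.02, and MCM7 and MCM5 had 1.67 and 0.15, none of which passed. ORC2 had 0.37 without ESI+ replicate 2, and MCM5 turned to -0.28 without ESI+ replicate 3.

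Among genes of H3 lysine 56 acetylation, the mark that Hst3 removes, the acetyltransferase gene RTT109 rose by 2.82 (SE 0.64, edgeR adjusted p = 0.00928), with 12.4 ± 5.41 normalised CPM in the naive and 92.7 ± 47.4 (SD, n = 3) in the ESI+ group. The histone chaperone gene ASF1 rose by 2.15 (SE 0.69, edgeR adjusted p = 0.0491), and had 1.37 without ESI+ replicate 3. The chaperone gene VPS75 and the sirtuin gene HST2 had 0.42 and -0.13 and did not pass, and HST2 changed sign without naive replicate 1 or ESI+ replicate 3.

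Of 15 tested silencing cofactors, 8 had positive fold changes and the median was 0.21. CAC2, a subunit of chromatin assembly factor 1, rose by 2.11 (SE 0.60, edgeR adjusted p = 0.0328). SWD1, a subunit of the histone H3 lysine 4 methyltransferase complex COMPASS, rose by 1.86 (SE 0.55, edgeR adjusted p = 0.0386), and had 1.16 without ESI+ replicate 2. PNC1 and NPT1 act in the NAD+ salvage that feeds Sir2. Naive cells had 1625 ± 296 normalised CPM of PNC1 and ESI+ cells 932 ± 488, and for NPT1 these were 323 ± 44.0 and 135 ± 21.3 (SD, n = 3). NPT1 was named after its values were seen. Each of its ESI+ libraries was below each naive one, with a log2 fold change of -1.26 (SE 0.44, edgeR adjusted p = 0.0712). It was the gene that DESeq2 called lower. By CPM, 14.6% of the 2844 genes tested likewise lay wholly below naive. PNC1 had -0.80 (SE 0.69), and its groups overlapped. Both genes were in the highest quartile by naive abundance, where the median log2 fold change was -0.83. Whether NAD+ salvage genes fell apart from this trend was not tested. BDF1, a bromodomain gene, had -0.02 (SE 0.49).

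Telomere and silenced-locus genes were sparse. The log2 fold change was 1.90 for the telomere capping gene TEN1 (SE 0.91, edgeR adjusted p = 0.183) and 0.83 for the telomerase gene EST3 (SE 0.63, edgeR adjusted p = 0.408). TEN1 had no counts in ESI+ replicate 3. HMRA1, the a1 gene at the silent locus HMR, had a log2 fold change of 1.32 that did not pass (SE 0.68, edgeR adjusted p = 0.216), with group means of 17.4 ± 8.99 and 43.2 ± 18.3 normalised CPM (SD, n = 3). Its sequence is shared with the expressed copy at MAT, so its counts cannot be assigned to the silent locus.

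**Figure D5:**
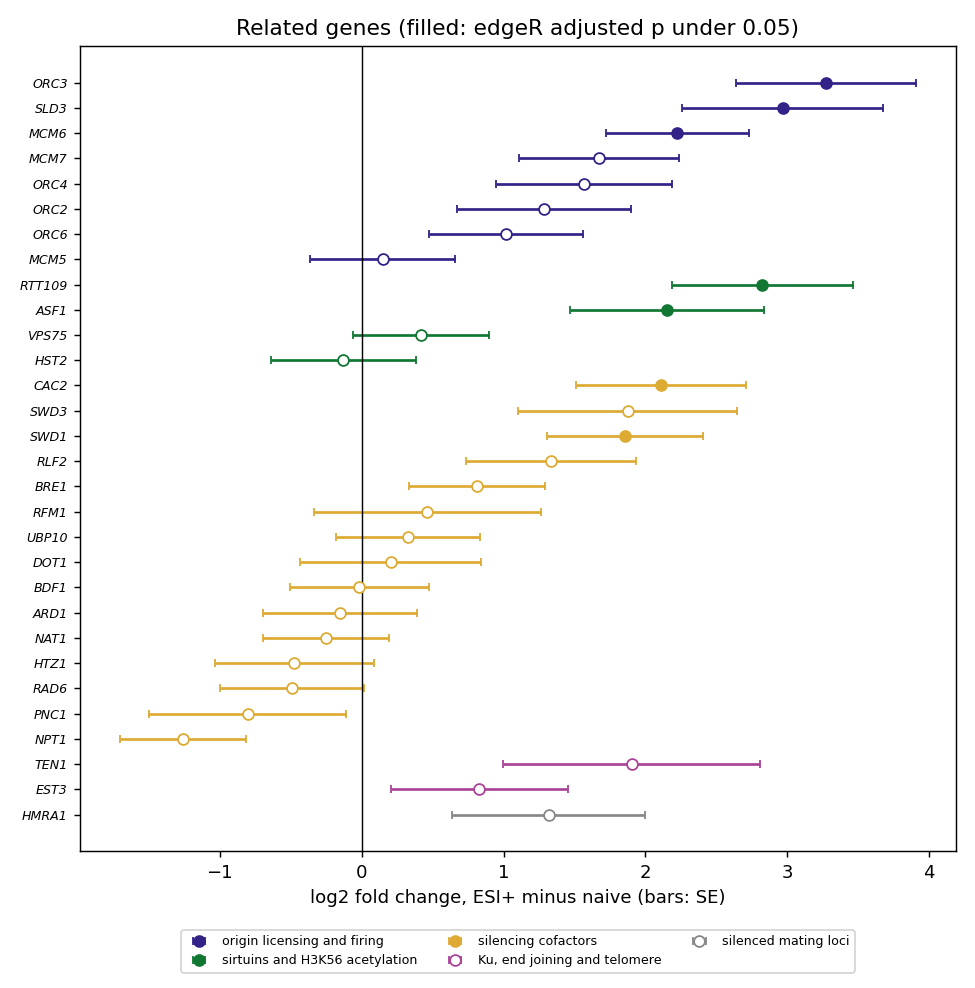
Log2 fold change, ESI+ minus naive, with SE bars, of the 30 related genes, grouped by list; filled points passed an edgeR adjusted p under 0.05. The 8 origin genes lie to the right of 0, and the silencing cofactors lie on both sides of it.

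Chromosomal neighbours were compared to see whether genes beside the silencing factor genes differed too. Among the 3 nearest protein-coding genes on each side of the 5 genes, 13 of 30 were in the files, and none of those around SIR1 was. Of the 13, 3 were called higher, 0 lower and 10 were not called (edgeR, adjusted p under 0.05), where 6.26% of all tested genes were called higher and 1.65% lower. On the lower side, 2 had an unadjusted p under 0.05, and the calls were 1 by DESeq2 and 0 by limma, which called 145 of 2843 and 32 of 2850 genes lower in all. Their median log2 fold change was 1.39, against 0.07 over all tested genes. In the lowest quartile by naive abundance, which held 7 of them, 19.7% of genes were called higher and the median was 1.17. Without naive replicates 1, 2 or 3 the calls were 0, 1 and 0, without ESI+ replicate 1 there were 5, and without ESI+ replicate 2 there were 0 (edgeR). Over the whole table, the fits without naive replicates 1, 2 or 3 called 87, 63 and 71 genes higher and 14, 6 and 4 lower. The fit without ESI+ replicate 1 called 249 and 87, and that without ESI+ replicate 2 called 2 and 0, against 178 and 47 with all libraries.

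Beside ORC1, ITT1, linked to translation termination, rose by 1.95 (SE 0.51, edgeR adjusted p = 0.0213). The other neighbours of ORC1 were TEM1, a GTPase gene of mitotic exit, with 1.79, the ribosomal protein gene RPS1B with 0.33 and MFT1, of the THO complex, with 1.41, and none of them passed. Beside YKU70, NGL2, a gene of rRNA processing, rose by 1.84 (SE 0.55, adjusted p = 0.0394 by edgeR; 0.89 without ESI+ replicate 2), and GPI12, of glycosylphosphatidylinositol anchor synthesis, rose by 1.53 (SE 0.47, adjusted p = 0.0429 by edgeR), while the mitochondrial ribosomal protein gene MRPL33 had 1.03. Beside HST3, the phospholipase gene DDL1 had 1.70, while the methyltransferase gene SFM1 and the Hsp90 cochaperone gene STI1 had -1.22 and -1.68, none past the threshold. Beside SIR2, the splicing factor gene PRP11 had -0.13, MTF2, of mitochondrial gene expression, had 1.39 and NAT1, a subunit gene of the acetyltransferase NatA, had -0.25. Neighbours thus ranged from negative to positive values at HST3 and SIR2, and were all positive at ORC1 and YKU70, with RPS1B at 0.05 without ESI+ replicate 1. Of all tested genes, 52.4% had positive values. The 7 neighbours in the lowest quartile by naive abundance, where the median was 1.17, were positive but for PRP11. In the third and highest quartiles, with medians of -0.28 and -0.83, SFM1, NAT1 and STI1 were negative and RPS1B was positive. Whether the loci differ beyond this trend was not tested.

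The genes most like each silencing factor gene over the 6 libraries were found by Pearson's r of log2 CPM, given as a description. The points share the group difference and the high values of ESI+ replicate 2, and many genes were as close: r was at least 0.9 with 216 other genes for SIR1, 215 for ORC1, 181 for YKU70, 127 for HST3 and 29 for SIR2. Closest to SIR1 were MIF2, GAG1 and MUS81 (r of 0.998, 0.995 and 0.994). Closest to ORC1 were ITT1, also a neighbour, MDV1 and TOF2 (0.999, 0.998 and 0.996). Closest to YKU70 were SPC72, CUS1 and RAD18 (0.992, 0.991 and 0.990). Closest to HST3 were UBP1, RFC3 and YJR124C (0.994, 0.990 and 0.987), and closest to SIR2 were RPP1, CEX1 and MRP20 (0.958, 0.949 and 0.945).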

How the data were processed

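RNA taken up in hot acid phenol was enriched on oligo-dT beads, reverse transcribed, sheared as cDNA and sequenced in pairs, per the labels' protocols. Whether strand was kept is not given in the sources used here. Kallisto 0.43.1 and build R64 are named in the submitters' processing notes. The deposited tables hold estimated counts per transcript isoform, with ambiguous fragments shared out by the authors' tool, and TPM values that the authors' tool scaled for length and to a common total, per the file headers.

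Estimated counts were summed over isoforms and rounded. EdgeR 4.0.16 (R 4.3.3) was run on all genes with its default filter (minimum count 10, 2844 genes left), TMM scaling and the quasi-likelihood test with robust moderation. Benjamini-Hochberg adjustment covered all tested genes, with a threshold of 0.05. Each SE is the absolute fold change over the square root of its F statistic. Limma 3.58.1 (with a mean trend) and DESeq2 1.42.0 served as alternatives. Mean isoform lengths and leading isoform shares were compared by exact permutation (scipy 1.17.1), with adjustment over 3 genes within each measure. Copies were searched with blastn 2.17.0. Names and coordinates, coding spans without untranslated regions, came from the R64 reference by systematic name, with 2849 of 2850 genes matched. The edgeR step was tested on simulated data. It called 3.0% of 100 genes with a log2 change of size 1, 52% of 100 with size 2 and 0.08% of 2644 unchanged genes. A gene that was not called is thus not shown to be unchanged. The rate among unchanged genes is that of the simulated data, and the error rate of the calls given here was not measured.

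The members, lists and tests were chosen with earlier results of these data known; robust moderation was taken from that earlier work. The genes named are the 5 members, all called genes of the related lists, the 2 most abundant of each list, all listed neighbours and the 3 genes most like each member. The uncalled genes ORC2, ORC4, ORC6, MCM7 and NPT1 were named after their values were seen. Alternatives are given in the closing section.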

Additional observations from a re-analysis of the deposited data

How the results depend on the processing

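The log2 fold changes of SIR1, ORC1 and YKU70 were positive under all 18 alternatives and that of HST3 under all 16 that tested it; that of SIR2 was -0.40 with ESI+ replicate 1 alone against naive. Of the 5 members, 2 were called; the count was 1 with limma on log2(TPM + 1) and 0 with limma on log2(TPM + 0.1), where the median of all genes was 0.65, and 0 after subtraction of a length-proportional background or with ESI+ replicate 1 alone, which called 0 genes of the whole table at 0.05 adjusted and 531 and 347 at an unadjusted p under 0.05 (edgeR). Leaving out single libraries gave 0 to 4, in fits that called 2 to 331 genes of the whole table higher and 0 to 87 lower. Subtraction left SIR1 at 0 counts in each naive library, so its fitted value there is no bound; ORC1 had 5.89 and YKU70 1.91 after it. Of the related genes, 7 were called higher; the count was 2 and 0 with limma, 0 and 0 under the same last 2 settings, 3 at an adjusted p under 0.01 and 0 to 10 without single libraries. None was called lower except 1 with DESeq2, which called 145 of 2843 genes lower in all. Of the neighbours 3 were called; the count was 5 with DESeq2, 0 after background subtraction, with ESI+ replicate 1 alone or at 0.01, 0 to 5 without single libraries, and 1 and 5 among the 2 and 5 nearest genes on each side. The difference in the share of the leading isoform ranged from 95.2 to 99.7 percentage points for ORC1, 50 to 100 for HST3 and -32.8 to 32.9 for SIR2 without single libraries, and that in mean isoform length from 12.2 to 41.3, 28.5 to 57 and -1.97 to 1.98 bases. The cause of these changes was not tested. Same-numbered replicates did not deviate together (r of -0.06, -0.21 and -0.04), and no library correlated best with its own number. With the replicate number as a block, 2 members, 3 related genes and 1 neighbour were called, and 67 genes higher and 25 lower in all, against 178 and 47. Without robust moderation, an alternative added after seeing the data, 150 and 28 were called, with the same 2 members. HST3 rested on 1 count in ESI+ replicate 3.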
